A study of Mus musculus with 18 samples.

Results

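The 9 genes described here, Hnf4a, Foxa1, Foxa2, Foxa3, Cebpa, Cebpb, Onecut1, Prox1 and Nr5a2, encode transcription factors that specify or maintain the liver lineage, and they were followed among 21883 protein-coding genes. They were chosen by name as liver lineage factors, with earlier results of these data already known. For each gene, all BMAL1 sites whose centre lay inside the gene or within 50 kb of either end were taken from the peak lists of liver, kidney and heart. This gave 34 sites, of which 28 were among the 4813 peaks of the liver list, 6 among the 4034 peaks of the kidney list and 0 among the 2519 peaks of the heart list. The lists come from ChIP-seq, in which DNA crosslinked to BMAL1 is precipitated with an antibody and sequenced. The wild-type C57BL/6 mice were 3 to 6 months old, had free access to food and lived under alternating 12 h light and 12 h dark phases. Liver, kidney and heart came from the same animals, 3 mice per tissue, and were taken 6 h after lights on. All tissues were fixed with 1% formaldehyde and precipitated with a chicken antibody against the amino-terminal domain of mouse BMAL1. There were 3 ChIP and 3 input libraries per tissue, 18 in all, and whole tissue was used, so the cell types within it were not separated. The 3 heart input libraries carry kidney in one label and heart in the others, and they are treated here as heart input.

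Each tissue has 1 peak list, made from all its ChIP and input libraries together. No value per animal was analysed, so no difference between tissues below carries an error between mice or a test, and read depth is unknown. Each peak has 1 whole-number score of unstated scale, which is used only to rank peaks inside its own list. The liver scores had a median of 40 (range 17 to 389), the kidney scores a median of 28 (range 14 to 304) and the heart scores a median of 25 (range 16 to 375). Rank 1 is the highest score, and peaks with equal scores share their mean rank. A gene without a site has no peak that passed into that list, which is not the same as no binding.

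BMAL1 is the bHLH-PAS activator of the circadian clock. Together with CLOCK it binds E-boxes, of which CACGTG is the canonical form, and it drives rhythmic transcription in most tissues. The liver lineage factors work as a network. The forkhead proteins of the FOXA family are pioneer factors that open chromatin in the developing liver, HNF4A is a nuclear receptor that sustains the hepatocyte programme, and the bZIP proteins C/EBP alpha and C/EBP beta control metabolic and acute-phase genes. ONECUT1 and PROX1 are homeodomain proteins of early hepatic growth, and NR5A2 is the nuclear receptor that drives bile acid synthesis genes. Hnf4a is also active in kidney tubules, and several of the other genes are active in further organs.

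The sequences shown are the parts of liver sites for which bases near a start of the member gene were at hand, 1 with an E-box and 1 without. Start sites and the bases around them came from RefSeq (GRCm38.p6), which lists 14 starts for the 9 genes, each with 250 bases before it and 50 after it. All 9 genes matched. Only at Onecut1 and Foxa2 did a site overlap a start window of its own gene, and the overlapping bases are shown 5′ to 3′ on the strand of the gene, with the E-box in capitals. The Onecut1 stretch is chr9:74861671-74861803 on the plus strand (133 bases), and the Foxa2 stretch is chr2:148045550-148045714 on the minus strand (165 bases).
Onecut1: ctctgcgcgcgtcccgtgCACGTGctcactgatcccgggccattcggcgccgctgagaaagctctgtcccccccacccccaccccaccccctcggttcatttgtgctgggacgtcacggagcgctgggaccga
Foxa2: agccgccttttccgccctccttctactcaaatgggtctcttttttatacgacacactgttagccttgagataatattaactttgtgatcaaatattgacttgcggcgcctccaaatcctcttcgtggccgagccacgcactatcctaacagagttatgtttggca

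The Onecut1 stretch holds 1 CACGTG, whose first base lies 232 bases before the start, and it is GC-rich (69.2% G or C). The middle of this E-box lies 9 bp from the centre of the liver peak. The Foxa2 stretch, which lies before the third listed start of that gene, holds no CACGTG and has 45.5% G or C. Among the 14 start windows of the member genes the Onecut1 window was the only one with CACGTG, and the motif reads the same on both strands. Of all 32817 RefSeq start windows, 7.15% hold it. Where a liver peak had 100 or more bases under start windows, the covered bases held CACGTG in 314 of 750 peaks (41.9%), with a median distance of 17 bp from the peak centre. For 87 of those 314 (27.7%) it lay within 10 bp, as it does at Onecut1. The covered share could be searched at 4 member sites. Besides those at Onecut1 and Foxa2, they were a liver site upstream of Cebpa and a kidney site upstream of Hnf4a, both under start windows of other genes and without CACGTG. The sequence of the other sites was not analysed here.

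Other letters were also searched on both strands in the 14 start windows. The variant E-box CACGTT was in 0 of them (4.69% of all windows), the D-box TTATGNAA in 0 (3.39%) and the HNF4-type CAAAGTCCA in 0 (0.475%). A forkhead-type TGTTTAC was in the Foxa1 window (3.65% of all windows) and TGTTTGC in a Prox1 window (5.06%). The C/EBP-type TTGCNNAA was in a Nr5a2 window (10.8%), and the nuclear receptor motif AGGTCA (16.3%) was in its other window. The ONECUT-type ATCAAT was in windows of Foxa2 and Hnf4a (7.54%), and ATCGAT was in 0 (0.926%). None of these matches lay inside a BMAL1 peak, whereas the Onecut1 E-box did. A match describes letters and is not a shown binding site.

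Liver sites were found at 8 of the 9 genes, kidney sites at 3 and heart sites at 0. Over all protein-coding genes, 34% had a liver site by the same rule, 33.1% a kidney site and 22.7% a heart site. The liver count of the members is thus above the share of all genes, the kidney count of 3 in 9 is close to it, and the heart count is below it. Of all genes with a liver site, 64.6% also had a kidney site and 41.4% a heart site, while among the 8 members with a liver site the numbers were 3 and 0. A liver site and neither of the others was found at 5 of these 8, Foxa2, Foxa3, Onecut1, Prox1 and Nr5a2, against 26.4% of all genes with a liver site. Foxa1 had no site in any list. The median number of liver sites was 3 per member and 0 per protein-coding gene, and for kidney and heart both medians were 0. The members were chosen with these lists already examined, so these counts are descriptions. Using only the upper 50% of each list by score, liver sites were at 4 members, Hnf4a, Cebpa, Cebpb and Onecut1 (22.4% of all genes), kidney sites at 3 (21.2%) and heart sites at 0 (13.7%).

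**Figure D1:**
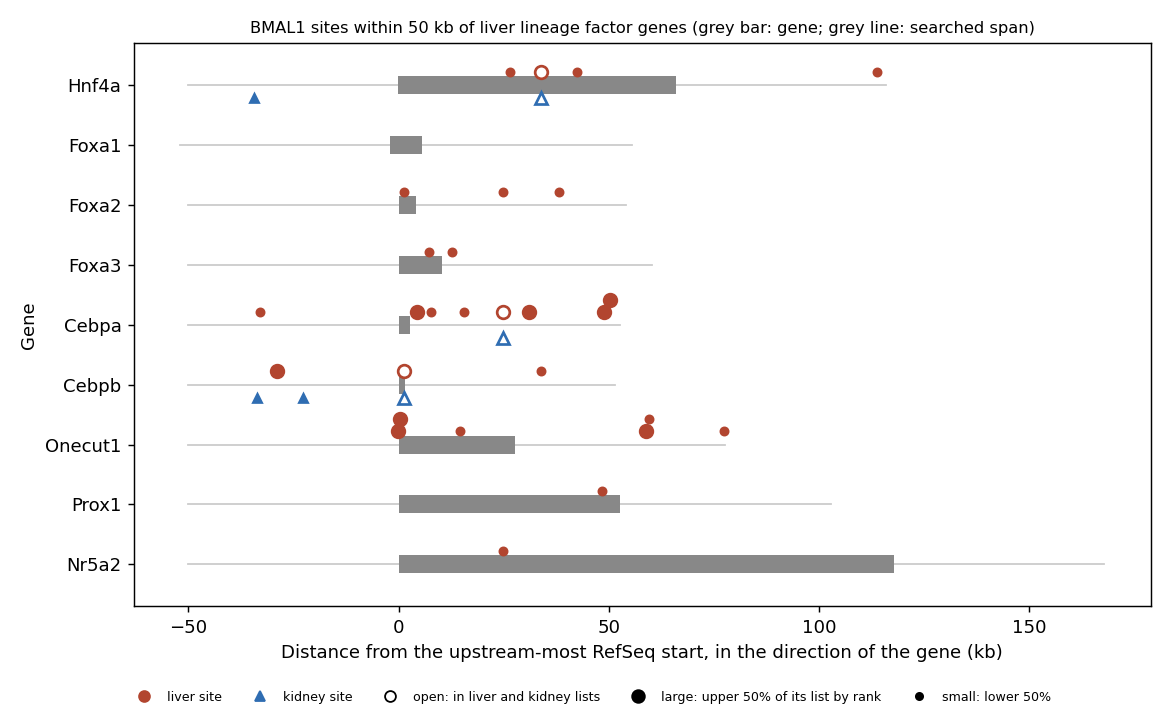
Position of each BMAL1 site near the 9 genes, in kb from the upstream-most RefSeq start in the direction of the gene, with liver sites as circles above and kidney sites as triangles below each gene. Open symbols are the 3 sites found in both lists, large symbols lie in the upper 50% of their list by rank, and symbols under 2 kb apart are set one above the other. Cebpa carries 8 liver sites, Foxa1 none.

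Of the 28 liver sites, 25 (89.3%, exact Clopper-Pearson 95% interval 71.8 to 97.7%, counting error only) overlapped no peak of another list, against 66.5% of the whole liver list. The interval treats sites as independent, which they are not: Cebpa gave 8 and Onecut1 6 of them, and neighbours lie as little as 691 bp apart. It is therefore likely too narrow and is no test against the whole list. The other 3 overlapped a kidney peak by at least 1 bp (30.7% of the list did). That 0 overlapped a heart peak (13.6% of the list) restates the absence of heart sites near the members and is no separate result. Weak peaks are more often found in 1 list, so the upper and lower 50% of the list were also read separately. In the upper 50% by score, 8 of 11 member sites were in liver only, against 46.8% of liver peaks, and in the lower 50% 17 of 17, against 86.1%. The median score of the member sites was 34.5 and their median rank 2783.5, slightly into the lower 50%. The top 10% of the list held 2 of them, and 8 of the 28 ranked in the lowest 25%, where tied scores put 25.7% of all liver peaks. Of the 6 kidney sites, 3 were those shared with liver and the other 3 were in kidney only (50%, interval 11.8 to 88.2%), where the whole list has 57.7%. All 3 shared sites were in the upper 50% of the kidney list, where 37.6% of peaks were in kidney only, and the 3 others in its lower 50%, where 78.3% were.

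Hnf4a (chr2:163506811-163572907, plus strand) carried the strongest site found in 2 tissues. This site lies inside the gene at chr2:163540687-163540928 and scored 140 in liver, at rank 192.5 of 4813, and its kidney partner scored 97, at rank 220 of 4034. The centres of the peaks in these lists are 24 bp apart. RefSeq lists 2 starts for Hnf4a, and the site lies 6.35 kb before the downstream one. By textbook knowledge Hnf4a has alternative promoters, the downstream of which is the one used in adult liver and kidney. The other liver sites were weak. Sites inside the gene at chr2:163533295-163533536 and chr2:163549107-163549348 scored 28 and 22, and a site 47.9 kb beyond the gene, which lies 1.75 kb from Ttpal, scored 21. In kidney the second site lies 34.3 kb upstream, inside Fitm2, with a score of 20. Its nearest liver site in the Hnf4a region is 60.9 kb away, so apart from the strong intragenic site the lists held different sites at this gene.

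The C/EBP genes were the other members with sites in both tissues. Cebpb (chr2:167688915-167690432, plus strand) is an intronless gene for a bZIP factor of the acute-phase response, and its shared site lies inside the gene, 1.20 kb after its start. That site at chr2:167689990-167690231 scored 63 in liver (rank 1237.5) and 39 in kidney (rank 1271.5), and the peak centres are 19 bp apart. The remaining Cebpb sites differed between tissues. In liver they lie 29 kb upstream, inside Tmem189, with a score of 52, and 32.3 kb downstream with a score of 31. In kidney both lie upstream, at 33.7 kb with a score of 18 and at 22.7 kb with a score of 25, and the nearest liver site to either is 4.76 and 6.28 kb away. No list therefore placed a site within 1 kb of the start of Cebpb.

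Cebpa (chr7:35119293-35121928, plus strand), which encodes the bZIP factor that restrains proliferation and drives metabolic genes in hepatocytes, had 8 liver sites, more than any other member. At least 8 liver sites were found at 7 of all protein-coding genes (0.032%). Of the 8, 7 lie downstream of the gene, between 1.82 and 47.5 kb from its end, and 1 lies 33 kb upstream. The highest score among all member sites, 148 at rank 157.5, belonged to the most distal of them at chr7:35169355-35169596. That site was in liver only, and it is nearer to Slc7a10 (16.6 kb), an amino acid transporter gene, than to Cebpa. A second site 1.2 kb before it scored 47 and is likewise nearer to Slc7a10 (17.8 kb). The site shared with kidney lies 22.1 kb downstream at chr7:35143907-35144148, and it scored 90 in liver (rank 589) and 29 in kidney (rank 1919.5), with centres 75 bp apart. The sites at 1.82, 5.17, 12.9 and 28.3 kb downstream scored 44, 34, 35 and 40 in liver, near the middle of that list, and were in liver only. The upstream site scored 35. It is nearer to Gm45095 (28.6 kb) and to Cebpg (29.7 kb), which encodes a related bZIP partner, than to Cebpa. Cebpa thus showed a row of liver sites on its downstream side and a single, shared site in kidney.

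**Figure D2:**
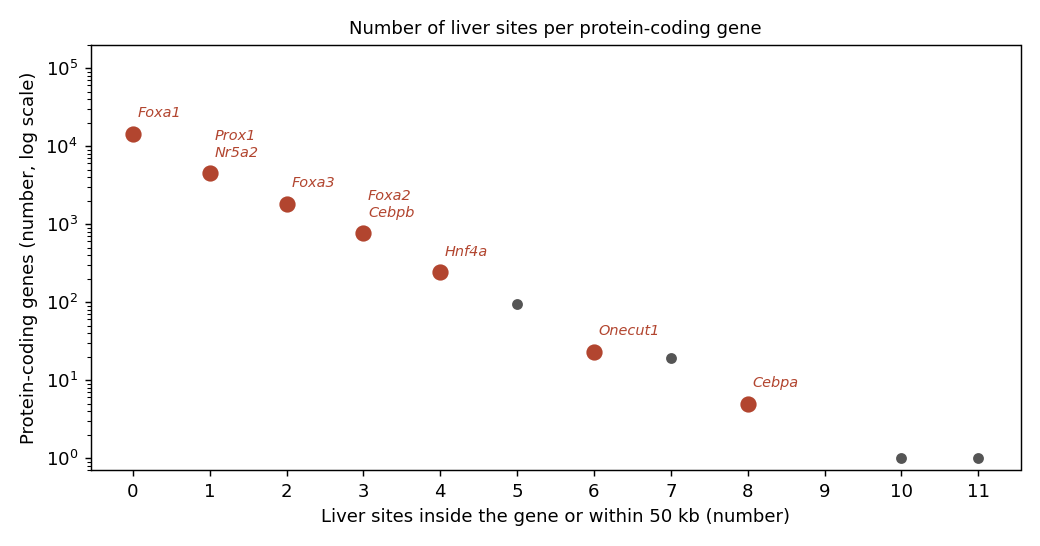
Number of protein-coding genes (log scale) by the number of liver sites inside the gene or within 50 kb, with the members marked in red. Most genes have 0 sites (14446), and Cebpa with 8 and Onecut1 with 6 lie towards the right end.

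Onecut1 (chr9:74861921-74889648, plus strand), which encodes the cut-homeodomain factor HNF6, had 6 liver sites and no kidney or heart site. At least 6 liver sites were found at 49 of all genes (0.224%). The strongest, at chr9:74861562-74861803, is the site with the E-box shown above, with a score of 78 at rank 804 and its centre 238 bp before the start. A second site 691 bp further on, inside the gene at chr9:74862253-74862494, scored 40 (rank 2376), so the start is flanked by a site on each side. Another pair lies downstream, 31 and 31.9 kb beyond the gene and 928 bp apart, with scores of 65 and 38. The last sites, 14.64 kb after the start inside the gene and 49.7 kb beyond its end, both scored 28. The last of these and the weaker site of the downstream pair are nearer to Fam214a than to Onecut1. The nearest kidney peak was 520 kb away and the nearest heart peak 86.5 kb.

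The liver sites of the forkhead genes all ranked in the lower 50% of the liver list. Foxa2 (chr2:148042877-148046969, minus strand) had 3 liver sites, inside the gene with a score of 23 and 20.7 and 34 kb downstream with scores of 19 and 17, the lowest score of the list. Their ranks of 4027.5, 4496 and 4738.5 all fall in the lowest 25% of the liver list. Foxa3 (chr7:19013283-19023539, minus strand), a forkhead gene that stays active in adult liver, had a site 2.54 kb beyond its end with a score of 34 and one inside the gene with a score of 23. Around Foxa1 (chr12:57540628-57548029, minus strand) the nearest peak was 1560 kb away in liver and in kidney and 1580 kb away in heart. The forkhead genes therefore had no site in the upper 50% of any list within 50 kb. Beyond that limit they did. Foxa2 had liver sites at 74.1 kb (score 46, rank 1974.5) and 71.3 kb (score 40, rank 2376). Foxa3 had a site at 95 kb in liver (score 94, rank 529.5) that overlaps a kidney site (score 66, rank 507).

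Prox1 and Nr5a2 had 1 weak liver site each. Prox1 (chr1:190118035-190170827, minus strand), a homeodomain factor of hepatoblasts and lymphatic endothelium, had it inside the gene at chr1:190122397-190122638, 47.00 kb after the nearest listed start. Nr5a2 (chr1:136842562-136960448, minus strand) had it inside the gene at chr1:136935568-136935809, 17.94 kb after the nearest start. Both scored 21, at rank 4270 of 4813, and the nearest kidney peak was 1050 kb from Prox1 and 218 kb from Nr5a2.

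**Figure D3:**
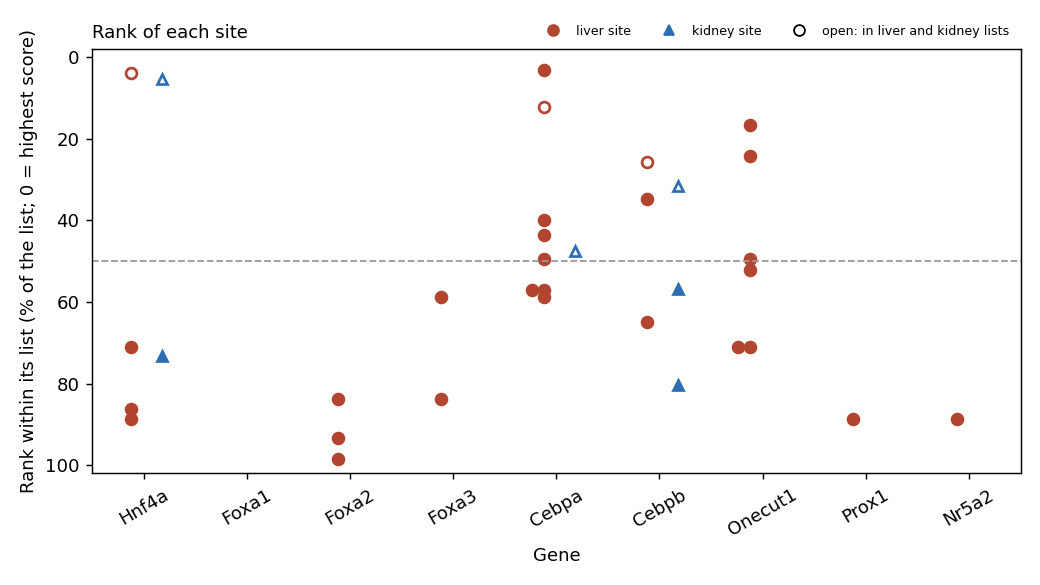
Rank of each site as a percentage of its own list, with the highest score at the top; circles are liver sites, triangles kidney sites and open symbols sites found in both lists, with equal ranks set side by side. The sites of Hnf4a and Cebpa reach the top 4 and 3.27% of the liver list, and those of Foxa2, Prox1 and Nr5a2 lie in its lowest 25%.

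By position, 10 of the 28 liver sites lie inside the member gene, 3 upstream and 15 downstream, and 14 lie over 10 kb from the gene. Within 1 kb of a listed start of the member were 3 sites, at Onecut1 on both sides of the start and at Foxa2, and counting starts of any RefSeq gene gave 6 of 28, against 26.7% of all liver peaks. The median distance to the nearest start of the member was 20.6 kb. For 7 liver and 3 kidney sites another protein-coding gene lay nearer than the member, so these sites are assigned by distance only. The gene table gives whole gene spans, and exons, introns and UTRs were not used here.

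The counts depended on the 50 kb limit in each list. Between 50 and 100 kb lay 6 more liver sites, 3 kidney sites and 3 heart sites. The nearest heart site to a member was 56.8 kb from Cebpb, with a score of 38 and in heart only. A site 86.5 kb from Onecut1 was also in heart only. The third heart site, 93.5 kb from Cebpa, was found in all tissues and scored 130 in liver, 62 in kidney and 49 in heart. Kidney sites that overlap a liver site lay 74.1 kb from Foxa2 and 94.9 kb from Foxa3. Of the members with only liver sites within 50 kb, just Prox1 and Nr5a2 had no kidney or heart site within 100 kb. Just inside the limit lay the Onecut1 site at 49.7 kb (score 28), the Hnf4a site at 47.9 kb (score 21) and the Cebpa sites at 47.5 and 46.3 kb (scores 148 and 47), so the best-ranked member site is one of those near the limit. Within 10 kb of a member there were 14 liver sites at 8 members (18.1% of all genes had one), 2 kidney sites at 2 members (18% of all genes) and 0 heart sites (11.5% of all genes).

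Other transcription factor genes were counted by the same rule. Of 23 further hepatocyte factor genes, 17 had a liver site, 12 a kidney site and 2 a heart site. The highest liver scores there were at Ppara (152), the nuclear receptor of fatty acid oxidation, Gata4 (120) and Nr2f2 (116). All 3 of these sites were shared with kidney, and those at Gata4 and Nr2f2 also with heart. In kidney the highest were at Nr2f2 (132), Ppara (86) and Gata4 (69), and the heart sites were at Nr2f2 (82) and Gata4 (68). Of 8 kidney lineage genes, 2 had a liver site, 5 a kidney site and 2 a heart site. The highest scores were at Pax2 (109) and Tfcp2l1 (18) in liver, at Lhx1 (39), Tfcp2l1 (31) and Foxi1 (20) in kidney, and at Tfcp2l1 (27) and Wt1 (20) in heart. Of 9 heart lineage genes, 3 had a liver site, 3 a kidney site and 5 a heart site. Mef2d (92), Nkx2-5 (71) and Gata4 (68) scored highest there in heart, at 5.63, 41.2 and 33.9 kb from the gene. The best sites of these genes were found in all tissues. The liver lineage members had no such site, which follows from their 0 heart sites within 50 kb. Gata4 is in both the hepatocyte and heart lists. The only liver site of Cebpg, a gene of the hepatocyte list, is the member site upstream of Cebpa, so the lists are not independent. The lists were not tested against each other.

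**Figure D4:**
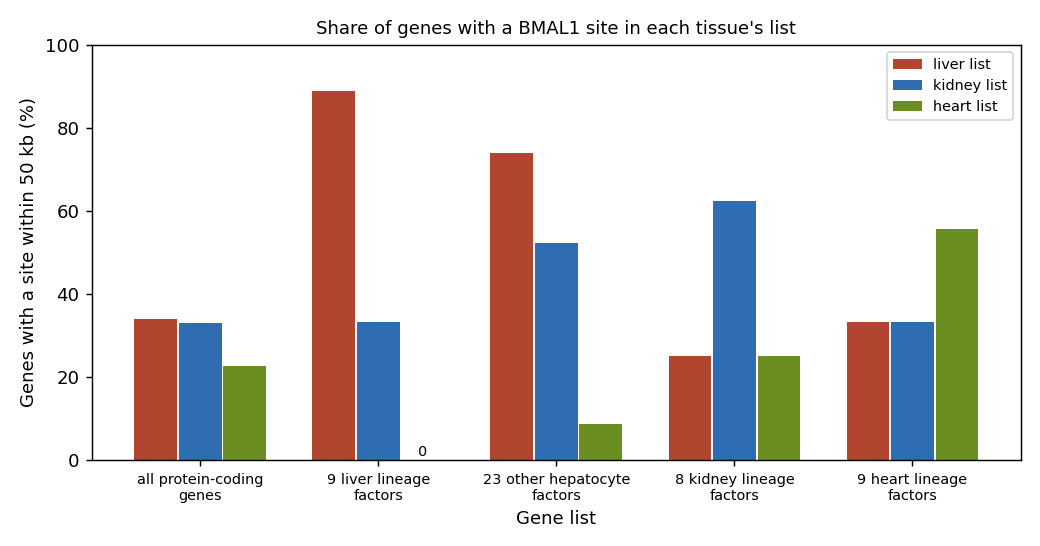
Percentage of genes with a BMAL1 site within 50 kb in the liver, kidney and heart lists, for all protein-coding genes and for each list of transcription factor genes. The 9 liver lineage factors show 88.9% for liver, 33.3% for kidney and 0 for heart, against 34, 33.1 and 22.7% of all genes.

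The genes most like Cebpa, the member with the best-ranked liver site, were found by the rank of their best site in the 3 lists, as a percentage of each list with 100 for no site. Cebpa had 3.27 in liver, 47.6 in kidney and 100 in heart. Gm19345 and Ceacam16, with the same values as each other, differed from it by a mean of 1.22 points over the 3 lists. Xpo7 and Dok2, again with equal values, differed by 1.37 points, and the agouti gene, a, by 2.19 points. None of them shares a liver site with Cebpa.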

How the data were processed

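Per the labels, the authors combined a tissue's ChIP and input libraries before they called peaks, giving 1 list for each. The submitters' processing notes name Bowtie2, SAMtools, HOMER and mm10, with no role or parameter. Column 5 of each deposited list is a score of unstated scale. Pooling leaves no spread between animals, and a deeper or better enriched pool can list more weak peaks.

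Starts of peaks were counted from 1. The build matched the RefSeq GRCm38.p6 tables: 26.7 to 38.3% of peaks lay within 1 kb of a start, and at most 4.32% after shifts of 10 or 100 kb. Sites were assigned by their centre, shared sites overlap by 1 bp or more, and shares have exact Clopper-Pearson 95% intervals (Python 3.11.15, pandas 2.3.3, scipy 1.17.1). Assignment and overlap were tested on simulated peaks. No set test was run. Named genes were all 9 members, at most 3 genes per list and tissue by score, and the 5 most like the best-ranked member. Members and lists were chosen with earlier results of these data known. Planned E-box shares over whole peaks were replaced by start windows. Distances, assignment, overlap and thresholds were varied. One gene of the other lists is not reported here.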

Additional observations from a re-analysis of the deposited data

How the results depend on the processing

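At 100 kb, the only setting that could add to the 0 heart sites, there were 3 heart sites at 3 members. Liver sites numbered 14 at 10 kb and 11 both in the upper 50% of the list by score and when every list was cut to the length of the shortest; with either shortened list 4 members had one. Kidney sites numbered 2 at 10 kb, 3 by nearest gene and 3 in the upper 50%, and in these settings 0% of them were in kidney only. In the whole kidney list the share was 57.7%, and these few sites are too few to read against it. At 100 kb, 5 members had a kidney site. The shares of all genes with a kidney or heart site at 100 kb were not computed, so these counts have no general rate beside them. The liver-only share of the liver sites lay between 72.7 and 89.3% in all 7 alternatives, against 66.5% of the whole liver list in the main setting. Most alternatives reuse the same sites or a part of them, so this range is no separate support. Matching shares of the whole list were not computed for the shortened lists. Counting CACGTT as an E-box, or only the first listed start of each gene, both chosen after seeing the data, left 1 member window with a match. Neither setting could change this count, since CACGTT is in 0 member windows and Onecut1 has 1 listed start. The planned E-box shares over whole peaks and the planned search for tandem E-boxes were not run, since no genome sequence was used. No paired analysis was possible because only lists pooled over the libraries of a tissue were used here, although the design has 3 replicates per group, and for the same reason none could be left out. Depth is unknown, so a site missing from a list is not shown to be unbound.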
